A study of Mus musculus with 24 samples.

Results

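Pericytes and vascular smooth muscle cells are the mural cells of brain vessels, and 10 genes that mark them were compared between the brains of CAST/EiJ and WSB/EiJ mice. The genes were named from what is known of mural cells: Rgs5, Pdgfrb, Kcnj8, Abcc9, Higd1b and Cspg4 for pericytes, and Acta2, Myh11, Cnn1 and Des for smooth muscle. They are 10 of the 53465 genes listed, and all 10 passed the filter on low counts that left 18425 genes to test. The data came from 6 CAST/EiJ and 6 WSB/EiJ mice, which are wild-derived inbred strains, and the study describes the strains as differing in infarct volume after middle cerebral artery occlusion. The labels give the tissue as brain and give no sex, age, treatment, surgery or dissection, so whether any animal was operated on is not given. The study's cross was made to find loci that act on stroke volume, and the strains were compared here for the expression of the mural cell genes.

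Pericytes sit on capillaries inside the basement membrane that they share with the endothelium, and smooth muscle cells wrap arteries and arterioles in rings. Endothelial cells secrete PDGF-B, which holds pericytes on the vessel through the receptor Pdgfrb. Pericytes of the brain are known for helping to keep the blood-brain barrier closed, and mural cells set vessel calibre, in smooth muscle through actin, myosin and the proteins that regulate them. Potassium channels opened by a fall in ATP, built from Kcnj8 and Abcc9, relax mural cells.

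Values are read counts per gene, scaled by library depth to CPM with trimmed-mean (TMM) library factors. Libraries held 38771135 to 46513232 gene reads in CAST and 32982569 to 45772849 in WSB. The share of alignments counted as not unique was 15.6% to 16.1% in CAST and 16.99% to 17.5% in WSB, and its part in the results below was not tested. Reads of both strains were aligned to a genome whose build was not given. Whether the strains aligned unequally to it at any gene was not tested either, and this cannot be told apart from a difference in expression. Of the 32-mers in the transcripts of each of the 10 genes, 0% to 5.22% also occur in transcripts of other genes. All CAST libraries precede all WSB libraries in index order, so strain and index order cannot be told apart. A pair of libraries stood apart in the makeup of their tissue. CAST_142 (each animal is named by its strain and number) had a summed level of 1204 CPM over 7 cerebellar markers, against 120 to 166 CPM in the other CAST animals and 109 to 149 CPM in WSB. Its summed striatal markers were 335 CPM, below the 835 to 1758 CPM of the other CAST animals. WSB_100 had 56.6 CPM over 7 choroid plexus markers, where the other WSB animals had 232 to 728 CPM. Values without both libraries are given below where they change a count of calls.

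A gene is called here when its Benjamini-Hochberg adjusted p is under 0.05 in edgeR's quasi-likelihood test across all 18425 genes. By that rule 42.7% of all tested genes were called, 21.2% lower in CAST and 21.5% higher. Of the 10 mural cell genes, 5 were lower in CAST, 0 were higher and 5 were not called. DESeq2 and limma-voom gave the same counts, and at an unadjusted edgeR p under 0.05 the gene Cspg4 would be added as 1 higher gene. Without CAST_142 and WSB_100, 4 were lower and 1 was higher, where 23.6% of all tested genes were lower and 23% higher. The median log2 fold change of CAST over WSB was -0.13 over the 10 genes and 0.00464 over all genes tested. Among the 6 pericyte genes, 4 were lower in CAST: Rgs5, Abcc9, Higd1b and Pdgfrb. Among the 4 smooth muscle genes, Cnn1 alone was lower. Every CAST animal was below every WSB animal for 4 of the 10 genes, namely Rgs5, Abcc9, Higd1b and Cnn1, while 27.1% of all tested genes had separate ranges in either direction and 13.3% had all CAST animals below all WSB animals. In bulk tissue, fewer cells of a type and less RNA per cell cannot be told apart.

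**Figure D1:**
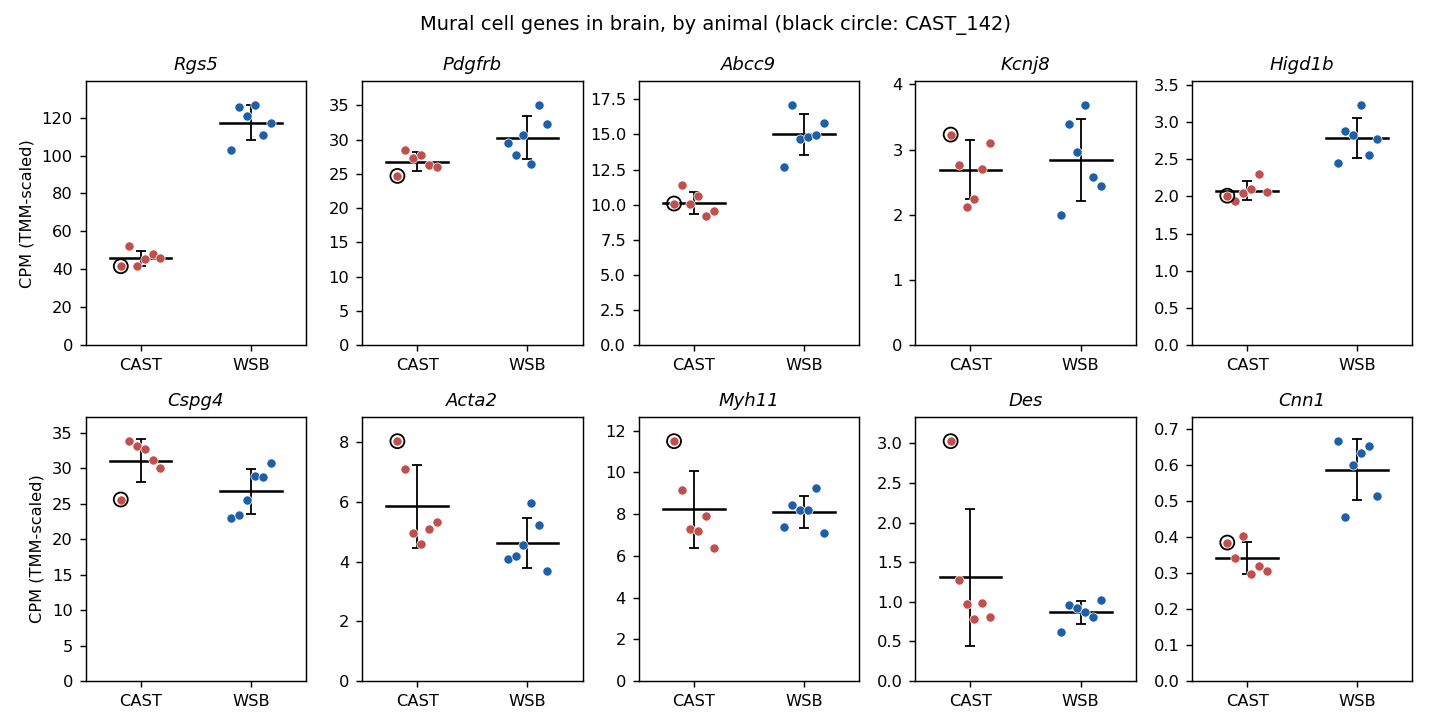
Level of each of the 10 genes in each animal, in TMM-scaled CPM on axes that start at 0, with the 6 CAST animals left of the 6 WSB animals; the horizontal bar is the mean and the error bar 1 SD. Rgs5, Abcc9, Higd1b and Cnn1 have separate ranges, and Des in CAST is spread by 1 animal at 3.03 CPM.

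The promoters of Rgs5, Kcnj8 and Abcc9 are shown because Rgs5 differed most and because Kcnj8 and Abcc9, neighbours that encode partner subunits, differed unequally. The sequences are from RefSeq on GRCm38.p6, run 5′ to 3′ on the gene's strand and, but for Abcc9, end at the base before the transcription start. They were not read from CAST or WSB animals, so how the promoters of these strains differ from the letters shown is not known. Capitals mark a match to the CArG box, a run of A and T bases framed by CC and GG that serum response factor binds in smooth muscle genes, with 1 mismatch allowed. The Rgs5 window is chr1:169655251-169655500 on the plus strand, the Kcnj8 window is chr6:142571615-142571864 on the minus strand, and the Abcc9 window is chr6:142702316-142702524 on the minus strand. The Abcc9 window holds 209 bases and stops 41 bases before the start, since those bases lie in an exon of GENCODE M21.
Rgs5: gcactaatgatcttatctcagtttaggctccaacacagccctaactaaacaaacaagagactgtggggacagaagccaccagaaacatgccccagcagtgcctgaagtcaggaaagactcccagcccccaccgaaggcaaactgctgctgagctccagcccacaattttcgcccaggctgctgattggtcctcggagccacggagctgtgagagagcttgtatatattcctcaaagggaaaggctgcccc
Kcnj8: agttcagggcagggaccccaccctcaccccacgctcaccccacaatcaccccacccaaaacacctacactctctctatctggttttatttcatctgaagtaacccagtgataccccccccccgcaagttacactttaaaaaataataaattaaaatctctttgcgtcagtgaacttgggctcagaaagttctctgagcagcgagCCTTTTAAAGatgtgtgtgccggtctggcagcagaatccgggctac
Abcc9: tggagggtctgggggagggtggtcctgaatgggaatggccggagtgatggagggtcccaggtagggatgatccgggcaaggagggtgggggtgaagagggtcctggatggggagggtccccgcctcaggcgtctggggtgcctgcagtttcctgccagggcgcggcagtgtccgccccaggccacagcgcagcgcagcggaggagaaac
Of the 10 genes, 7 had a promoter in the table, all but Pdgfrb, Higd1b and Myh11. None of the 7 held an exact CArG box in the 250 bases before the start, and of all 32851 promoters of that length 1.47% held one. With 1 mismatch allowed, Kcnj8 held 1 match, which starts 46 bases before the transcription start, and Acta2 and Cspg4 held 2 each, those of Cspg4 overlapping. Of all promoters, 18.6% held such a match. TGGGAA, the core of the element bound by the Notch effector RBPJ, was searched on both strands and occurred in Abcc9 and Acta2, and in 21.6% of all promoters. TGTTTAC, which forkhead factors bind, occurred in none of the 7 and in 3.17% of all promoters. Of the 250 bases searched, 217 in Acta2, 71 in Cspg4, 41 in Abcc9 and 37 in Cnn1 lie in GENCODE M21 exons of the gene. All matches in Acta2 lie in such bases. A match is a description of these letters and does not show that a factor binds.

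Rgs5 encodes a regulator of G-protein signalling that speeds the shutdown of G-protein subunits behind contractile receptors, and it is among the most abundant pericyte transcripts. Rgs5 ranged over 41.6, 45.6 and 52.3 CPM in CAST (lowest, median and highest of 6) and over 103, 119 and 127 CPM in WSB. Every CAST animal lay far below every WSB animal. Means with their SD (n = 6 in each strain) were 45.8 ± 4.03 CPM for CAST animals and 117 ± 9.20 CPM for WSB animals, a log2 fold change of -1.36 ± 0.07 (SE) with a 95% interval of -1.51 to -1.21 and an adjusted p of 2.26e-09 (edgeR). WSB was 2.56-fold higher than CAST. The level rested on 1680 to 2457 reads per CAST animal and 4019 to 5644 per WSB animal. Rgs5 was the single one of the 10 genes called with at least a 2-fold change, where 5.91% of all tested genes were called lower by that much. The size of its change exceeded that of 91.1% of all tested genes, and by p it stood at place 256. The gene lies at chr1:169655501-169695813 (GRCm38, plus strand), its body overlaps no other gene, and its call held in all 22 alternatives, at adjusted p of 1.01e-75 to 2.68e-08.

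Pdgfrb, the receptor through which endothelial PDGF-B recruits pericytes, differed much less. It ranged over 24.7, 26.8 and 28.5 CPM in CAST and over 26.4, 30.1 and 35.0 CPM in WSB. The ranges overlapped, with 3 of 6 CAST animals below all WSB animals. The log2 fold change was -0.18 ± 0.07, its 95% interval was -0.33 to -0.03, and the adjusted p of 0.0434 (edgeR) lay close to the threshold. Its call was lost in 14 of 22 alternatives, and over the 22 the adjusted p ran from 0.0136 to 0.140. Of the 12 fits that left out 1 animal, the call held in those without CAST_170, WSB_120 or WSB_138 and was lost in the other 9. Pdgfrb lies at chr18:61045150-61085061 on the plus strand.

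Higd1b, a gene of the hypoxia-inducible domain family whose transcript marks brain pericytes, ranged over 1.94, 2.05 and 2.31 CPM in CAST and over 2.46, 2.80 and 3.23 CPM in WSB. The ranges were separate by a narrow gap. Its log2 fold change was -0.42 ± 0.09 with an adjusted p of 0.00184 (edgeR), from 78 to 95 reads per CAST animal and 96 to 132 per WSB animal. With lane 6 alone the adjusted p was 0.0631. Higd1b lies at chr11:102835849-102838040 on the plus strand.

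Kcnj8 encodes the pore Kir6.1 and Abcc9 the sulfonylurea receptor SUR2 of the mural ATP-sensitive potassium channel, and their genes stand 16.2 kb apart on chromosome 6, both on the minus strand (Kcnj8 at chr6:142564837-142571614, Abcc9 at chr6:142587862-142702315). Abcc9 ranged over 9.18, 10.05 and 11.4 CPM in CAST and over 12.7, 14.9 and 17.1 CPM in WSB, with separate ranges. Its log2 fold change was -0.57 ± 0.07 with a 95% interval of -0.73 to -0.40 and an adjusted p of 3.24e-05 (edgeR), and the call held in all 22 alternatives. Kcnj8 ranged over 2.11, 2.73 and 3.23 CPM in CAST and over 1.996, 2.77 and 3.68 CPM in WSB. These ranges overlapped almost wholly. The log2 fold change of Kcnj8 was -0.07 ± 0.16, the 95% interval of -0.43 to 0.28 contains both no change and a difference as large as that of Higd1b, and the adjusted p was 0.736 (edgeR). Reads of Abcc9 cannot be told apart from those of the antisense gene 5330439B14Rik over the overlap, although 89.6% of the Abcc9 body lies outside other genes.

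Cspg4 encodes the proteoglycan NG2, which pericytes carry and which is also a defining marker of oligodendrocyte precursor cells. Cspg4 ranged over 25.6, 31.99 and 33.9 CPM in CAST and over 22.98, 27.2 and 30.8 CPM in WSB. The ranges overlapped, with 4 of 6 CAST animals above all WSB animals. The log2 fold change was 0.22 ± 0.09, its 95% interval was 0.02 to 0.41 and the adjusted p was 0.0592 (edgeR), so it was not called. With CAST_142 and WSB_100 left out it was called higher, with an adjusted p of 0.0212, and it was also called without CAST_142 alone (0.0119) and without WSB_169 alone (0.0291). Of 11 oligodendrocyte precursor markers, 9 were tested, of which 3 were called, all higher in CAST (Olig1, Olig2 and Vcan). Of all tested genes, 21.5% were called higher in CAST and 21.2% lower. With CAST_142 and WSB_100 left out, Sox10 was called lower as well. Olig1, a transcription factor of the lineage, averaged 82.4 ± 6.29 CPM in CAST, against 63.9 ± 9.71 CPM in WSB. The summed level of the list was 520 to 666 CPM in CAST and 557 to 629 CPM in WSB, and Gpr17 and C1ql1 were listed at 0. The 520 CPM was CAST_142, and the other CAST animals had 604 to 666 CPM. The part of these cells in the Cspg4 values was not tested. Cspg4 lies at chr9:56865033-56899870 on the plus strand.

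Acta2, the actin of smooth muscle, was not called. It ranged over 4.59, 5.21 and 8.04 CPM in CAST and over 3.68, 4.38 and 5.97 CPM in WSB. CAST_142 at 8.04 CPM and CAST_170 at 7.11 CPM were above all WSB animals, and the other 4 CAST animals lay inside the WSB range. It had a log2 fold change of 0.34 ± 0.16 with a 95% interval of -0.01 to 0.70 and an adjusted p of 0.101 (edgeR). It was called in 1 of 22 alternatives, without WSB_138, at an adjusted p of 0.0481. Acta2 lies at chr19:34241090-34255590 on the minus strand.

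Myh11, the smooth muscle myosin heavy chain, ranged over 6.36, 7.61 and 11.5 CPM in CAST and over 7.09, 8.19 and 9.24 CPM in WSB. The 11.5 CPM belonged to CAST_142, which was again the highest animal, while another CAST animal was the lowest of all 12. Its log2 fold change was 0.03 ± 0.13, the 95% interval was -0.26 to 0.32 and the adjusted p was 0.885 (edgeR). Without CAST_142 and WSB_100 the log2 fold change was -0.12, so its sign is not settled. Myh11 lies at chr16:14194535-14291372 on the minus strand.

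Cnn1 encodes calponin, which binds actin and restrains the myosin ATPase of smooth muscle. Cnn1 ranged over 0.297, 0.330 and 0.403 CPM in CAST and over 0.455, 0.617 and 0.665 CPM in WSB. The ranges were separate, at the lowest level of the 10 genes. The log2 fold change was -0.77 ± 0.15 with a 95% interval of -1.11 to -0.43 and an adjusted p of 0.000994 (edgeR). It rested on 11 to 17 reads per CAST animal and 18 to 28 per WSB animal, and with lane 5 alone the adjusted p was 0.0772. Cnn1 lies at chr9:22099216-22109630 on the plus strand.

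Des encodes desmin, the intermediate filament of muscle, which pericytes also make. Des ranged over 0.783, 0.978 and 3.03 CPM in CAST and over 0.614, 0.898 and 1.03 CPM in WSB. CAST_142 was at 3.03 CPM and the next CAST animal at 1.28 CPM, which gave a coefficient of variation of 65.8% in CAST and 16.6% in WSB. Des had a log2 fold change of 0.59 ± 0.32 with an adjusted p of 0.158 (edgeR), and it was 0.15 without CAST_142. Des lies at chr1:75360329-75368579 on the plus strand and overlaps the antisense gene Gm15179, with 90.2% of its exon bases outside other genes.

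CAST_142 was the highest CAST animal for Acta2, Myh11, Des and Kcnj8, and the lowest for Rgs5, Pdgfrb and Cspg4. The summed level of Acta2, Myh11, Cnn1 and Des was 22.95 CPM in CAST_142, at most 17.9 CPM in the other CAST animals, and 12.3 to 15.9 CPM in WSB. The cerebellar markers of CAST_142 given above move with this, and their part in it was not tested. Over 12 skeletal muscle markers the sum was 205 CPM in CAST_142, 37.6 to 41.0 CPM in the other CAST animals and 25.7 to 58.8 CPM in WSB. That list includes Pvalb, which neurons also make and which averaged 59.1 ± 66.8 CPM in CAST, against 33.7 ± 10.1 CPM in WSB. The defining marker Acta1 was listed at 0, but 0% of its body lies outside other genes, so its 0 says nothing of muscle. Of the 7 tested members, 1 was called, Myh4, lower in CAST at 0.392 ± 0.114 CPM against 0.753 ± 0.376 CPM in WSB. Of all tested genes, 21.2% were called lower in CAST.

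**Figure D2:**
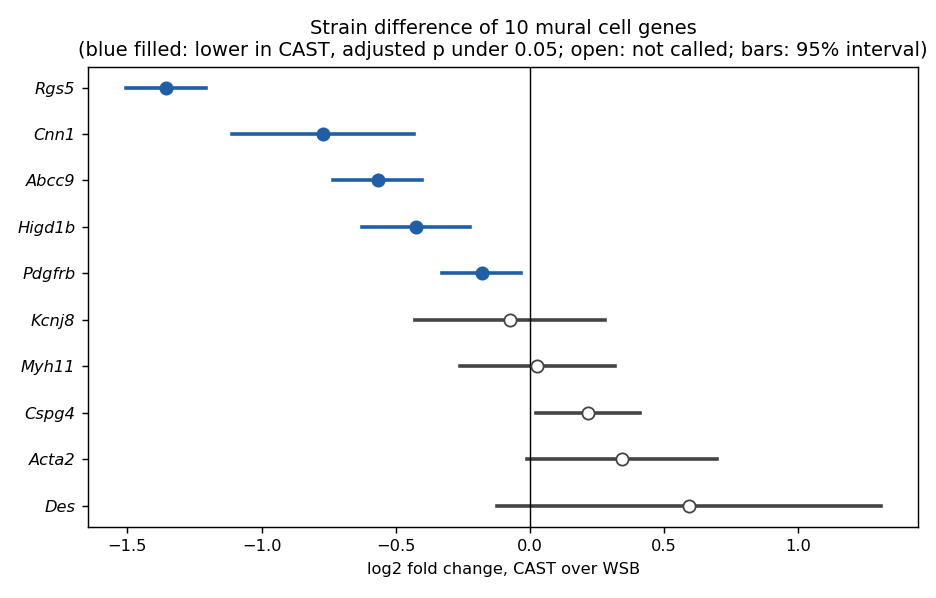
Log2 fold change of CAST over WSB for each of the 10 genes with its 95% interval. The interval of Rgs5, -1.51 to -1.21, lies apart from those of all the other genes, and the intervals of Kcnj8, Acta2, Myh11 and Des include 0.

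Scaled by the length of their annotated exons, Rgs5 had the highest level of the 10 genes in both strains, 10.1 CPM per kb in CAST and 25.8 in WSB. Pdgfrb was next at 4.88 CPM per kb in CAST and 5.53 in WSB. Below it, the order of Acta2 (2.67 in CAST, 2.11 in WSB), Cspg4 (2.61 in CAST, 2.24 in WSB) and Higd1b (2.45 in CAST, 3.29 in WSB) differed between the strains, and within CAST these 3 differed by less than their spread. Abcc9, Myh11 and Kcnj8 lay at 1.21, 1.08 and 1.06 CPM per kb in CAST and at 1.79, 1.06 and 1.12 in WSB, and Myh11 and Kcnj8 differed by less than their spread in both strains. Des, at 0.348 in CAST and 0.231 in WSB, and Cnn1, at 0.125 in CAST and 0.214 in WSB, were the lowest, and in WSB they differed by less than their spread. Scaled by gene body length instead, Rgs5 was still first in both strains and Higd1b was second. Summed over the 10 genes, the level was 129 to 149 CPM in CAST and 185 to 219 CPM in WSB. Without Rgs5 the sum was 83.6 to 96.3 CPM in CAST and 82.4 to 99.9 CPM in WSB, and the ranges overlapped.

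Ratios of a pair of genes within an animal show whether both differed by the same factor between the strains. They show unequal change and not which gene of the pair changed. Of 6 ratios compared, 5 differed between the strains by an exact two-sided permutation test adjusted over the 6. The log2 ratio of Rgs5 to Pdgfrb had a mean and SD of 0.77 ± 0.10 over the 6 CAST animals and 1.96 ± 0.23 over the 6 WSB animals, with an exact p of 0.0022, the smallest that this design allows, and an adjusted p of 0.00649. Rgs5 to Acta2 was 2.98 ± 0.34 in CAST and 4.67 ± 0.25 in WSB (exact permutation, adjusted p of 0.00649). In both ratios every CAST animal was below every WSB animal, as for Rgs5 itself. In the other ratios the ranges of the strains overlapped.

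The ratio of Cspg4 to Pdgfrb was 0.21 ± 0.08 in CAST and -0.18 ± 0.18 in WSB (exact permutation, adjusted p of 0.00866), so these markers of pericytes did not differ by a common factor. The ratio of Kcnj8 to Abcc9, the subunits of a common channel, was -1.91 ± 0.28 in CAST and -2.40 ± 0.25 in WSB, higher in CAST by 0.50 (exact permutation, adjusted p of 0.0156). Acta2 to Myh11 was -0.49 ± 0.15 in CAST and -0.81 ± 0.19 in WSB (exact permutation, adjusted p of 0.0156). Without CAST_142 and WSB_100, the adjusted p of each of these last ratios was 0.0571. Higd1b to Pdgfrb was -3.66 ± 0.12 in CAST and -3.42 ± 0.26 in WSB and did not pass (exact permutation, adjusted p of 0.0628), which does not show that they changed alike, and it passed in 3 of 16 alternatives.

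**Figure D3:**
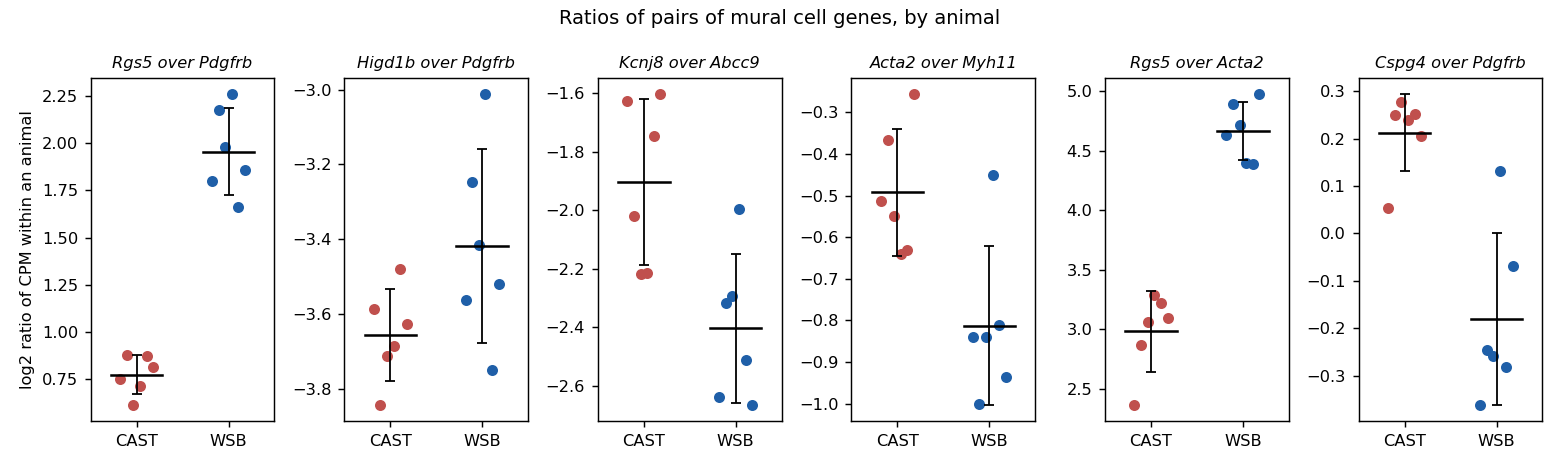
Log2 ratio of the CPM of a pair of genes in each animal, with the 6 CAST animals left of the 6 WSB animals and bars for mean and SD. Rgs5 to Pdgfrb is 0.77 in CAST and 1.96 in WSB on average with no overlap, and Rgs5 to Acta2 does not overlap either. The strains overlap in the other ratios, among them Higd1b to Pdgfrb.

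Whether members vary together from animal to animal was asked within each strain, for 8 pairs of genes and 16 relations in all, each over 6 animals. A single relation passed, that of Rgs5 with Higd1b in WSB (Pearson r of 0.92, exact permutation p of 0.00278, adjusted 0.0444; Spearman rho of 1, adjusted 0.0444). Without WSB_100 and WSB_147, the animals farthest from the median of Rgs5, r was 0.77. In CAST the same pair had r of 0.01 and rho of 0.09 (exact permutation, adjusted p of 0.944 and 1). The difference between the strains in this relation was not tested, and with lane 5 or lane 6 alone the WSB relation did not pass. Acta2 with Myh11 had r of 0.88 and rho of 0.66 in CAST (exact permutation p of 0.0417 and 0.175, adjusted 0.222 and 0.644), and r was -0.33 without CAST_142 and CAST_170, so the relation rests on those animals. Acta2 with Des in CAST had r of 0.89 and rho of 0.83 (exact permutation p of 0.025 and 0.0583, adjusted 0.2 and 0.467), and r was 0.26 without the same animals.

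Across all 12 animals, after each strain's mean was removed, the 5 of 13560 protein-coding genes whose log2 CPM was most like that of Rgs5 were Tfpi, Dnah14 and Ptpra (r of 0.90 each), Slfn5 and Cc2d2b (0.89 each). Tfpi encodes the inhibitor of the tissue factor pathway of coagulation, Dnah14 a dynein heavy chain and Ptpra a receptor tyrosine phosphatase. Among the mural cell genes, Kcnj8 (0.57), Abcc9 (0.56) and Higd1b (0.54) were the most like it, and Pdgfrb had r of -0.13. For Acta2 the most like were Ndufa2, Cstb and Hint2 (0.91 each), Hist1h1c and Tlcd1 (0.90 each), with Myh11 at 0.80 in place 72. Over the 10 animals other than CAST_142 and WSB_100, Slfn5 was the single one of these 10 genes still among the first 5, with r of 0.98 to Rgs5. Among the mural cell genes over those animals, Kcnj8 was still the most like Rgs5 (0.70), followed by Des (0.56), Acta2 (0.48) and Myh11 (0.41), with Abcc9 at 0.37 and Higd1b at 0.32. Over the same animals Myh11 had r of 0.65 to Acta2. These likenesses are the highest of many over few animals and share library and depth, so they are given as a description.

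The nearest tested genes on each side of the called members were compared with them. Left of Rgs5, Nuf2, a kinetochore gene 124 kb away, was higher in CAST at 3.595 ± 0.521 CPM, against 1.44 ± 0.287 CPM in WSB (adjusted p of 6.54e-06, edgeR). Right of it, Rgs4, another regulator of G-protein signalling 45.7 kb away, was at 326 ± 101 CPM in CAST, against 421 ± 58.7 CPM in WSB, and was not called (log2 fold change of -0.37, adjusted p of 0.149). Around the Kcnj8 and Abcc9 pair, Ldhb (log2 fold change of 0.02) and Cmas (-0.05) were not called. Next to Higd1b, Gjc1 (-0.08) and Eftud2 (-0.05) were not called, and beside Pdgfrb the transporter gene Slc6a7 was lower in CAST (-0.35) while Csf1r was not called (-0.01). Of the genes beside Cnn1, Elof1 was higher in CAST (0.17) and Gm49318 was not called (-0.11).

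Of 28 further pericyte genes, 25 were tested, of which 6 were lower in CAST and 4 higher, with a median log2 fold change of -0.0048. Of all tested genes, 21.2% were lower and 21.5% higher, and these shares stand beside the counts of the lists that follow. Vtn, which encodes the matrix protein vitronectin made by brain pericytes, was lower at 22.3 ± 3.57 CPM in CAST, against 41.2 ± 2.69 CPM in WSB (log2 fold change of -0.88, adjusted p of 4.42e-06, edgeR). Ifitm1, an interferon-induced membrane protein gene, was lower at 0.273 ± 0.0991 CPM in CAST, against 1.43 ± 0.307 CPM in WSB, and shares 10.99% of its transcript 32-mers with other genes. Also lower were Slc6a20a, Nid1 and the aminopeptidase gene Anpep, and the higher genes were Slc19a1, Atp13a5, Ebf1 and Cox4i2. Leaving out CAST_142 and WSB_100 gave 7 lower and 3 higher genes, since Mcam was then called lower and Cox4i2 was not called. Vtn and Ifitm1 had separate ranges in the strains. The summed level of the list was 457 to 611 CPM in CAST and 521 to 693 CPM in WSB. Its largest part was Rgs4, which was not called and averaged 326 CPM in CAST and 421 CPM in WSB. P2ry14, Gper1 and Ecm2 were listed at 0 in every animal.

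Of 30 further smooth muscle and contractile genes, 25 were tested, of which 5 were lower in CAST and 6 higher, with a median of 0.04. The shares over all tested genes were 21.2% lower and 21.5% higher. Mylk, the kinase that starts contraction by phosphorylating myosin light chain, was lower at 15.7 ± 2.42 CPM in CAST, against 26.8 ± 3.97 CPM in WSB (log2 fold change of -0.77, adjusted p of 0.00012, edgeR). Myl9, the light chain itself, Lmod1, Vcl and Npnt were lower as well. Myocd, the coactivator that drives the smooth muscle programme with serum response factor, was higher at 1.28 ± 0.219 CPM in CAST, against 0.442 ± 0.106 CPM in WSB (log2 fold change of 1.52, adjusted p of 1.37e-05). Itga8, an integrin subunit, was higher at 20.7 ± 4.57 CPM in CAST, against 10.1 ± 2.31 CPM in WSB. Tpm2, Aoc3, Tgfb1i1 and Cald1 were also higher. Leaving out CAST_142 and WSB_100 gave 5 lower and 5 higher genes, Cald1 no longer being called. Srf, Pln and Cav1 were listed at 0, and Tagln and Actg2 did not pass the filter. Of the Tagln body, 42.0% lies outside other genes.

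**Figure D4:**
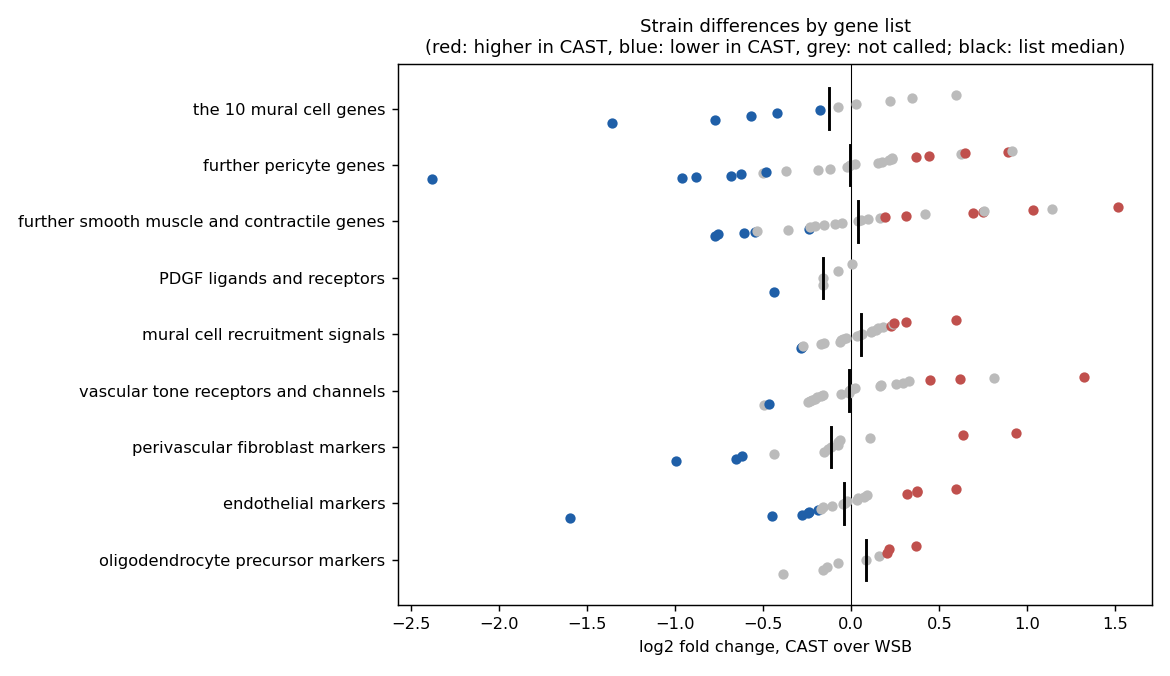
Log2 fold change of CAST over WSB of every tested gene of the lists named on the left, 1 row per list, with called genes in red where higher in CAST and in blue where lower, other genes in grey, and a black bar at the median. Called genes lie on both sides of 0 among the further pericyte genes (6 lower, 4 higher) and the further smooth muscle genes (5 lower, 6 higher). Of all tested genes, 21.2% were called lower and 21.5% higher.

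Of the 5 PDGF ligands and receptors, 1 was called, lower in CAST. Pdgfc, a ligand of the alpha receptor, averaged 7.76 ± 1.87 CPM in CAST, against 10.5 ± 1.19 CPM in WSB (adjusted p of 0.0408, edgeR). Pdgfb, the ligand of Pdgfrb, was at 32.8 ± 4.64 CPM in CAST, against 36.6 ± 1.68 CPM in WSB, and was not called (adjusted p of 0.153). Of 23 genes that recruit mural cells or instruct them, 22 were tested, of which 2 were lower (Tek and Tgfb2) and 4 higher (Tie1, Tgfbr2, Hey1 and Tgfb1). Tie1 and Tek, endothelial receptors of the angiopoietin pathway, differed in opposite directions. Tie1 averaged 13.4 ± 1.73 CPM in CAST, against 8.85 ± 0.967 CPM in WSB, and Tek averaged 19.5 ± 1.22 CPM in CAST, against 23.7 ± 2.77 CPM in WSB. Tgfbr2, a receptor of TGF-beta, averaged 24.2 ± 1.32 CPM in CAST, against 19.5 ± 1.52 CPM in WSB. Angpt2 was listed at 0. When CAST_142 and WSB_100 were left out, 2 of this list were lower and 7 higher.

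Of 27 receptors and channels of vascular tone, 24 were tested, of which 1 was lower in CAST (Adra2a) and 3 were higher (Adora2b, Trpc6 and Abcc8). Adora2b, an adenosine receptor that dilates vessels, averaged 7.53 ± 1.22 CPM in CAST, against 3.01 ± 0.347 CPM in WSB (log2 fold change of 1.32, adjusted p of 1.36e-06, edgeR). Trpc6, a cation channel of smooth muscle, averaged 9.33 ± 1.49 CPM in CAST, against 6.08 ± 0.953 CPM in WSB. Adra2a, an adrenergic receptor that neurons also make, averaged 14.2 ± 2.38 CPM in CAST, against 19.7 ± 3.004 CPM in WSB. Abcc8 and Kcnj11 encode the counterparts of Abcc9 and Kcnj8 in the channel of neurons and beta cells. Abcc8 averaged 45.9 ± 13.4 CPM in CAST, against 33.7 ± 5.84 CPM in WSB, whereas Kcnj11 was not called (31.3 ± 3.90 CPM in CAST, against 35.0 ± 3.93 CPM in WSB). Ednra, Avpr1a and Kcnmb1 were listed at 0. Without both libraries that stood apart, 4 of the list were lower and 4 higher, and Kcnj11 was then called lower while Abcc8 was not called. limma-voom did not call Abcc8 in all 12 animals either.

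Markers of other vascular cells moved in both directions, as did all tested genes (21.2% lower in CAST, 21.5% higher). Of 20 endothelial markers, all tested, 6 were lower in CAST and 4 higher (7 and 4 with both libraries that stood apart left out, when Slc16a1 was lower too), and their summed level was 425 to 478 CPM in CAST and 445 to 507 CPM in WSB. Ly6a, a surface protein of endothelium, averaged 2.29 ± 0.429 CPM in CAST, against 6.94 ± 1.22 CPM in WSB, and it shares 31.2% of its 32-mers with other genes. Kdr, the VEGF receptor, averaged 13.8 ± 1.12 CPM in CAST, against 18.9 ± 1.504 CPM in WSB. Of 15 perivascular fibroblast markers, 13 were tested, of which 3 were lower (Fmod, Dpp4 and Aldh1a2) and 2 higher (Col3a1 and Lum). Fmod averaged 5.93 ± 1.36 CPM in CAST, against 11.8 ± 1.94 CPM in WSB, and Col3a1 averaged 7.73 ± 2.55 CPM in CAST, against 4.04 ± 0.875 CPM in WSB. The fibroblast sum was 187 to 288 CPM in CAST and 208 to 289 CPM in WSB, with Ogn and Igf2 listed at 0. The 187 CPM was CAST_142, and the other CAST animals had 221 to 288 CPM. The part of these cells in the mural values was not tested.

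Among the remaining cell types and regions, 4 of 7 tested microglial markers were lower in CAST (Aif1, C1qa, Trem2 and Tmem119). The other 3 were not called. The microglial list summed to 134 to 228 CPM in CAST and 214 to 236 CPM in WSB. The 134 CPM was CAST_142, and the other CAST animals had 199 to 228 CPM. Of 6 astrocyte markers tested, Aldh1l1 was lower and Fgfr3 and Gja1 were higher (and Slc1a2 too with both libraries left out). The astrocyte list summed to 3947 to 5401 CPM in CAST and 3926 to 4694 CPM in WSB. The lowest CAST sum was again that of CAST_142, and the other CAST animals had 4568 to 5401 CPM. Of 6 neuronal markers tested, 0 were called by edgeR, DESeq2 or limma-voom and 1, Map2, had an unadjusted edgeR p under 0.05, while with both libraries left out 1, Stmn2, was lower. The most abundant of them, Snap25, averaged 2069.5 ± 193 CPM in CAST, against 2293 ± 272 CPM in WSB. Of 6 choroid plexus markers tested, Clic6 was lower, and Kl too with both libraries left out. Of 5 cerebellar markers tested, Cbln3, Ppp1r17 and Il16 were called higher, with CAST_142 far above all other animals, and 0 were called by DESeq2 or limma-voom. With CAST_142 and WSB_100 left out, edgeR called 0 of them, with 1 at an unadjusted p under 0.05. Of 7 striatal markers, 0 were called by edgeR, DESeq2 or limma-voom and 0 had an unadjusted p under 0.05, Pde10a being the most abundant at 522 ± 194 CPM in CAST, against 561 ± 71.6 CPM in WSB. Of 6 erythroid genes tested, Hba-a1, Hbb-bt and Bpgm were higher, and Hba-a1 and Hbb-bt share 75.2% and 59.4% of their 32-mers with other genes. Gfap, P2ry12, Tubb3, Nefl, Kcnj13, Pcp2 and Alas2 were listed at 0. The part of any of these in the mural values was not tested.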

How the data were processed

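RNA from the brains of 12 mice, 6 CAST/EiJ and 6 WSB/EiJ, was sequenced on 2 lanes per animal, which gave 24 files. The deposited values are whole-number read counts per gene, not normalized. Per the submitters' processing notes, the tools were DESeq2, HTSeq, TopHat2 2.1.1 and cutadapt. The genome build was not given in the sources used here, nor were the annotation, read length or strand setting. Reads of overlapping or antisense genes can therefore not be told apart. The genes named here as listed at 0 in every animal have 0% of their body outside other genes (0.0187% for Igf2). Their 0 may be a failed assignment, so nothing is said of their expression.

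Both lanes of an animal were added up, and 5 counters that name no gene were left out of library sizes and tests. These counters held 4.04% to 4.95% of alignments for no feature and 11.1% to 16.5% for ambiguous ones. Symbols and coordinates are from GENCODE M21 (GRCm38), which holds 53360 of the 53465 identifiers. The labels number the animals and do not say how they were reared. The p-values of the strain comparison set the difference between strains against the spread among these animals within a strain.

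CAST was tested against WSB in R 4.3.3 with edgeR 4.0.16 (robust quasi-likelihood test, TMM scaling, default expression filter by strain, Benjamini-Hochberg over 18425 genes). The SE is the log2 fold change divided by the square root of F, and the 95% interval uses t with 10 degrees of freedom. Ratios and within-strain relations were computed on log2 CPM (prior count 2), with exact permutation in scipy 1.17.1. DESeq2 1.42.0, limma-voom (limma 3.58.1), other scalings, filters, single lanes and left-out animals were the alternatives. In counts simulated for CAST against WSB (18264 genes in that step), recovery was 73.1% at a 1.5-fold change, 97.0% at 2-fold and 100% at 4-fold, with 7 false calls. The genes changed there, 67, 67 and 66 at these folds, are far fewer than the genes called in the data. They were drawn above a minimum level, and every gene took its dispersion from the trend with level. Recovery of genes as low as Cnn1 was therefore not tested.

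The 10 members and the 16 gene lists were chosen with earlier results of these data known. Named genes were all members, up to 3 called genes of each list with the smallest adjusted p or, where a list had none, its most abundant gene, the 5 genes most like Rgs5 and Acta2, and the nearest tested genes beside called members. Other names complete a count or were chosen after their values were seen. Some members of the lists are counted and not reported here by name.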

Additional observations from a re-analysis of the deposited data

Results flagged for a closer look

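Among the 106 strain groups examined for single animals that stand apart, 16 held one, and chance gives about 1 in 20. Of the 16, 8 were CAST_142 and 3 were WSB_100. Of the 20 groups of the mural cell genes, 1 did: Des in CAST_142 was at 3.03 CPM, where the other CAST animals were at 0.783 to 1.28 CPM. Among the ratios, Acta2 to Myh11 was -0.45 in WSB_138 on the log2 scale, where the other WSB animals were at or below -0.81, and Cspg4 to Pdgfrb was 0.053 in CAST_142, against 0.20 to 0.28 in the other CAST animals.

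Among genes of vessel signalling, Pdgfc was at 4.11 CPM in CAST_142 (other CAST animals 7.83 to 9.43) and at 12.8 CPM in WSB_100 (other WSB animals 9.53 to 10.4). Tgfbr2 was at 21.6 CPM in CAST_142 (others 24.3 to 25.2) and Tie1 was at 7.04 CPM in WSB_100 (others 8.76 to 9.68). Of the endothelial genes, Ly6a was at 3.14 CPM in CAST_142 (others 1.94 to 2.22) and Kdr was at 15.9 CPM in WSB_100 (others 18.9 to 19.9).

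Among markers of other cells, Cbln3 was at 344 CPM in CAST_142 (others 0.391 to 11.9) and at 9.26 CPM in WSB_120 (others 0.256 to 0.836). Ppp1r17 was at 68.1 CPM in CAST_142 (others 0.351 to 3.85), and Il16 was at 60.8 CPM in CAST_142 (others 2.06 to 4.86). Fgfr3 was at 152 CPM in CAST_202 (others 130 to 134), Aldh1l1 at 50.8 CPM in WSB_120 (others 41.4 to 44.8) and Hbb-bt at 30.4 CPM in CAST_170 (others 8.63 to 16.2).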

How the results depend on the processing

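Rgs5 and Abcc9 were called lower in CAST in all 22 alternatives. The 5 lower members were 3 with lane 5 alone and 4 to 5 when 1 animal was left out. The count of higher members, 0, was 1 without CAST_142 and WSB_100 and 0 to 1 when 1 animal was left out. Over all genes, 7313 to 8726 were called when 1 animal was left out, against 7866. The log2 fold change of Kcnj8 was -0.16 to 0.0087 when 1 animal was left out. That of Myh11 was -0.011 with lane 5 alone, -0.12 without CAST_142 and WSB_100, and -0.094 to 0.094 when 1 animal was left out. The ratio of Higd1b to Pdgfrb passed with lane 5 alone (-0.34), without CAST_202 (-0.27) and without WSB_147 (-0.31), and ran from -0.31 to -0.16 when 1 animal was left out. Kcnj8 to Abcc9 no longer passed without CAST_142 and WSB_100 (0.40), nor did Acta2 to Myh11 (0.32), which also failed with lane 6 alone (0.24). With lane 5 alone or lane 6 alone, 0 within-strain relations passed, where 1 did on summed lanes (Rgs5 with Higd1b in WSB, r of 0.73 and 0.42). Relations that turned sign were Acta2 with Cnn1 in CAST (r of -0.54, lane 6), Myh11 with Cnn1 in CAST (-0.65, lane 6), Acta2 with Des in WSB (0.23, lane 5) and Kcnj8 with Abcc9 in CAST (0.16 in lane 5, 0.029 by library size only). The causes were not tested. No paired analysis was possible because the strains share no replicate numbers. Depth limits Cnn1 most, at 11 to 28 reads per animal.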
